A study of Mus musculus with 2 samples.

Results

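The 10 genes described here encode receptor subunits for interleukins of the common gamma chain family (Il4ra, Il13ra1, Il2rg, Il2rb, Il7r and Il21r), for the gp130 family (Il6ra and Il6st) and for IL-10 (Il10ra and Il10rb). They were chosen by gene symbol, as subunits of these receptor families, and are 10 of the 23343 genes in the deposited tables. Each had 1 row, so no summing over transcript rows was needed. Poly(A) RNA was sequenced from eosinophils of untreated C57BL6J mice, sorted from pooled bone marrow on surface CCR3 and SiglecF. A library came from each of 2 independent sorts, called sort 1 and sort 2, which form 1 group, so the data hold no comparison between treatments, genotypes or cell types. How many mice went into a pool, and their age, are not stated in the sources used here.

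Cytokine receptors of these families have no kinase of their own. A ligand brings a private, ligand-binding chain together with a shared chain, and Janus kinases bound to the chains then phosphorylate STAT transcription factors. IL-4 signals through IL-4Rα with the common gamma chain (the type I receptor), or through IL-4Rα with IL-13Rα1 (the type II receptor, which IL-13 uses as well), and both lead mainly to STAT6. IL-6 binds IL-6Rα, which pairs with gp130, and IL-10 binds IL-10Rα, which pairs with IL-10Rβ, and both lead mainly to STAT3. In eosinophils IL-4 and IL-13 are known as products of the cell and as signals to it.

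Sort 1 gave 10087743 counted reads and sort 2 gave 9264150, of which the 10 genes together took 1079 and 959, or 0.0107% and 0.0104%. Genes that define eosinophils were abundant: all 10 on the eosinophil marker list were detected, with median levels of 135 RPKM in sort 1 and 136 in sort 2 (RPKM, reads per kilobase of transcript and per 1000000 reads). Genes of neutrophils were abundant too, with medians of 46.6 and 33.1 RPKM over 12 late neutrophil genes. By summed level the lists were closer. The eosinophil genes summed to 3460 RPKM in sort 1 and 4304 in sort 2, and the late neutrophil genes to 4240 and 3959. Detection here means 1 RPKM or more in each sort. The 2 sorts serve as replicates, values are mean ± SD over them (n = 2), and intervals on reads cover counting error only. By Xist and Y-linked genes the pools differed in sex, so this SD includes any difference by sex. In these bulk samples, fewer cells with a transcript and less of it per cell cannot be told apart.

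Of the 10 receptor genes, 2 were detected, the shared chains Il2rg and Il10rb, while 30.2% of all genes were. The other 8 lay below an RPKM of 1 in each sort, although each had reads in both. Median levels of the 10 genes were 0.401 RPKM in sort 1 and 0.317 in sort 2, beside 0.108 and 0.0896 for all genes. The count depends on the unit. The authors' RPKM divides by more reads than the table holds, and with values rescaled to the table's own total, an alternative chosen after seeing the data, 6 of the 10 passed, beside 42.8% of all genes. At 1 count per 1000000 reads (CPM), which ignores transcript length, 9 of 10 passed, beside 46.8% of all genes. Il2rb was the exception.

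**Figure D1:**
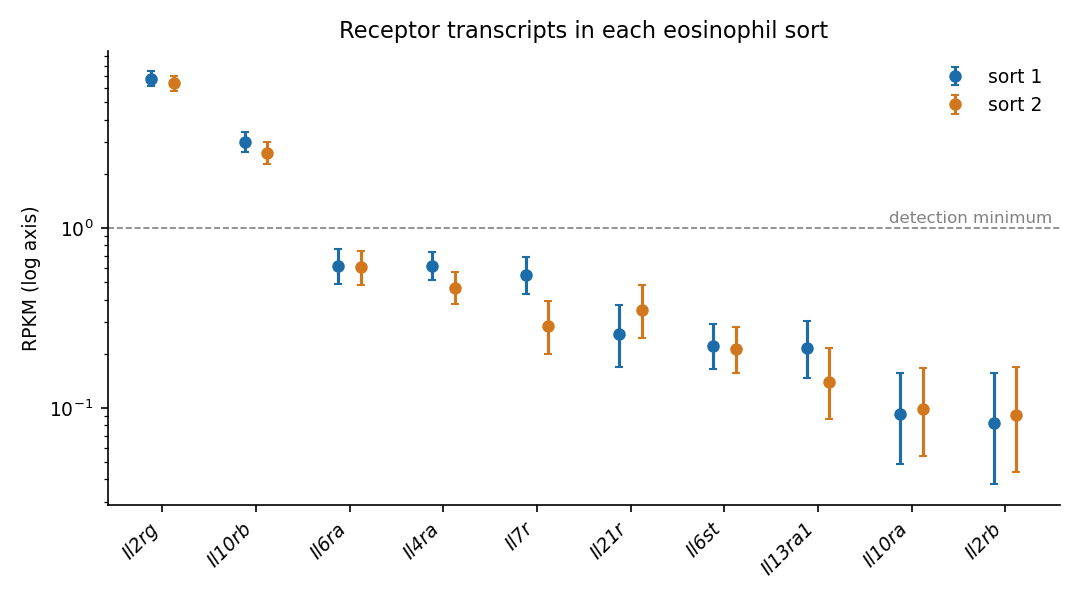
RPKM of each receptor gene (log axis) in sort 1 (blue) and sort 2 (orange), with exact 95% Poisson intervals from the reads, genes ordered by mean. Il2rg and Il10rb lie above the dashed detection minimum of 1 in both sorts, and the other 8 genes lie below it.

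Il2rg encodes the common gamma chain, the subunit shared by the receptors for IL-2, IL-4, IL-7, IL-9, IL-15 and IL-21, and it was the highest of the 10. It had 442 reads in sort 1 and 419 in sort 2, which is 6.77 RPKM (95% Poisson interval 6.15 to 7.43) and 6.40 RPKM (5.80 to 7.04). The sorts were thus nearly equal, with a mean of 6.59 ± 0.261 RPKM (SD, n = 2), above 90.3% of all genes. The deposited transcript runs on the minus strand of chromosome X from 101264387 to 101268206 (mm10), and has 8 exons in GENCODE M21. A further protein-coding gene model, Gm20489, overlaps it on the same strand, so reads of the pair cannot be told apart by strand.

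Il4ra encodes IL-4Rα, the chain that binds IL-4 and carries the main docking sites for STAT6. It had 127 reads in sort 1 and 96 in sort 2, or 0.616 RPKM (interval 0.513 to 0.732) and 0.464 RPKM (0.376 to 0.567), with a mean of 0.540 ± 0.107 (SD, n = 2). Its level exceeded that of 61.6% of genes. Il4ra lies on the plus strand of chromosome 7 from 125552282 to 125579474, with 11 exons. An antisense gene, Gm44876, overlaps it, and whether the counting used strand is not stated in the sources used here.

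Promoter windows of these partners of the type I IL-4 receptor are shown because the pair is the widest gap in level between chains of the IL-4 receptors. Sequences are from RefSeq on GRCm38.p6, 250 bases before to 50 bases after a transcript start, and 7 of the 10 genes matched. Il2rg is at chrX:101268206-101268505 on the minus strand and Il4ra at chr7:125552021-125552320 on the plus strand. Capitals mark GGAA, the core that ETS factors such as PU.1 bind, on either strand.
Il2rg: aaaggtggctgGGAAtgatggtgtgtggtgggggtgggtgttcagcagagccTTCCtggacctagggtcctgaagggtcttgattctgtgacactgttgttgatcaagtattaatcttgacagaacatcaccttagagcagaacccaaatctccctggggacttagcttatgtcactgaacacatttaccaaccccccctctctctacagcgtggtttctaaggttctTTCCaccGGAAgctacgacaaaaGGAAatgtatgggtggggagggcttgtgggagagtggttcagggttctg
Il4ra: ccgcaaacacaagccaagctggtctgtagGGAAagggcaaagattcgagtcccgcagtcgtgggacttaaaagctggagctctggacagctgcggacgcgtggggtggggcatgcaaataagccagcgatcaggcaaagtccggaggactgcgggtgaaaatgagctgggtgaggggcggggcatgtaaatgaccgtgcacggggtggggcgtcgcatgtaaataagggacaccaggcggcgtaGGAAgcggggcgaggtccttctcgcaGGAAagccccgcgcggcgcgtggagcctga

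The core occurred 5 times in the window of Il2rg and 3 times in that of Il4ra, and 96.0% of all 32851 windows held it, with a median of 3 occurrences. The windows differed more in base composition. That of Il2rg had 50.3% GC and 3 CpG dinucleotides, against 62.0% GC and 25 CpG in that of Il4ra, where the medians of all windows were 52.7% and 7. Among the other 5 matched genes, Il7r had 1 CpG, Il21r had 7, Il6ra 25, Il13ra1 28 and Il6st 33, so CpG-rich and CpG-poor windows both occurred among genes of low level. Searched on both strands in the 7 windows, the GATA core GATAA was in 1 window, that of Il6ra, and in 25.4% of all windows. TTCNNNGAA, a spacing bound by several STATs, was in 1 of the 7, that of Il7r, and in 8.30% of all. TTCNNNNGAA, the spacing preferred by STAT6, was in 0 of 7 and in 6.95% of all. The deposited start of Il2rg lies 49 bases downstream of the RefSeq start that sets this window, and that of Il4ra 11 bases downstream.

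Il13ra1 encodes IL-13Rα1, which completes the type II receptor. It had 32 reads in sort 1 and 21 in sort 2, or 0.214 RPKM (interval 0.147 to 0.303) and 0.140 RPKM (0.0869 to 0.215). Its mean of 0.177 ± 0.0524 RPKM (SD, n = 2) made it the eighth of the 10 genes, and the ranges of the sorts did not overlap those of Il4ra. Il13ra1 lies on chromosome X from 36112139 to 36171261 on the plus strand.

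Il7r encodes the IL-7 receptor alpha chain, a lymphoid receptor that also joins Crlf2 in the receptor for TSLP. It had 71 reads in sort 1 and 37 in sort 2, or 0.546 RPKM (interval 0.427 to 0.689) and 0.284 RPKM (0.200 to 0.391), the largest relative difference between the sorts among the 10. Il21r, which binds IL-21, had 27 reads in sort 1 and 37 in sort 2, or 0.256 and 0.350 RPKM. These were the reverse order, with overlapping intervals of 0.169 to 0.372 and 0.246 to 0.482. Il21r begins 23955 bases beyond the end of Il4ra on the same strand of chromosome 7.

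Il2rb encodes the beta chain that the IL-2 and IL-15 receptors share, a chain of T and NK cells. It was the lowest of the 10, with 9 reads in sort 1 and 10 in sort 2, or 0.0824 RPKM (interval 0.0377 to 0.156) and 0.0913 RPKM (0.0438 to 0.168). At this depth 1 read was worth 0.00916 RPKM in sort 1, so its level rests on few reads. Its mean of 0.0869 ± 0.00631 RPKM still lay above 48.9% of genes, because many genes had no reads. The authors' RPKM implies a length of 2703 bases for Il2rb, against 4194 in the GENCODE transcript, and 5466 against 8678 for Il6st, so their places relative to other genes depend on the transcript model.

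In the gp130 family the ligand-binding chain was higher than the shared one. Il6ra, encoding IL-6Rα, had 83 and 82 reads in sorts 1 and 2, or 0.613 and 0.604 RPKM, with a mean of 0.609 ± 0.00634 (SD, n = 2). Il6st, encoding gp130, the signalling chain of IL-6, IL-11, LIF and oncostatin M, had 49 and 47 reads, or 0.222 and 0.212 RPKM, and a mean of 0.217 ± 0.00680. Both were close to equal in the sorts. An antisense gene, Gm42809, overlaps Il6ra.

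In the IL-10 receptor the order was the other way. Il10rb, encoding the beta chain that IL-10 shares with IL-22 and the interferon lambdas, had 226 and 196 reads in sorts 1 and 2, or 3.02 and 2.61 RPKM, with overlapping intervals that begin at 2.64 and 2.26. Its mean of 2.81 ± 0.288 RPKM (SD, n = 2) lay above 80.5% of genes. Il10ra, encoding the chain that binds IL-10, had 13 and 14 reads, or 0.0919 RPKM (interval 0.0489 to 0.157) and 0.0987 RPKM (0.0540 to 0.166). Another gene model, Gm21970, overlaps Il10rb on the same strand, and a pseudogene and a miRNA gene overlap Il10ra.

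Ordered by mean RPKM, the genes ran Il2rg, Il10rb, Il6ra, Il4ra, Il7r, Il21r, Il6st, Il13ra1, Il10ra and Il2rb. Of the 9 neighbouring pairs, 4 had overlapping ranges over the sorts: Il6ra and Il4ra, Il4ra and Il7r, Il7r and Il21r, and Il6st and Il13ra1. Il2rg stood clear of Il10rb, and Il10rb of Il6ra. The ranges of Il10ra and Il2rb were separated by 0.0919 against 0.0913 RPKM, and their counting intervals overlapped almost wholly. With CPM in place of RPKM the order had a Spearman correlation of 0.98 with this one.

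**Figure D2:**
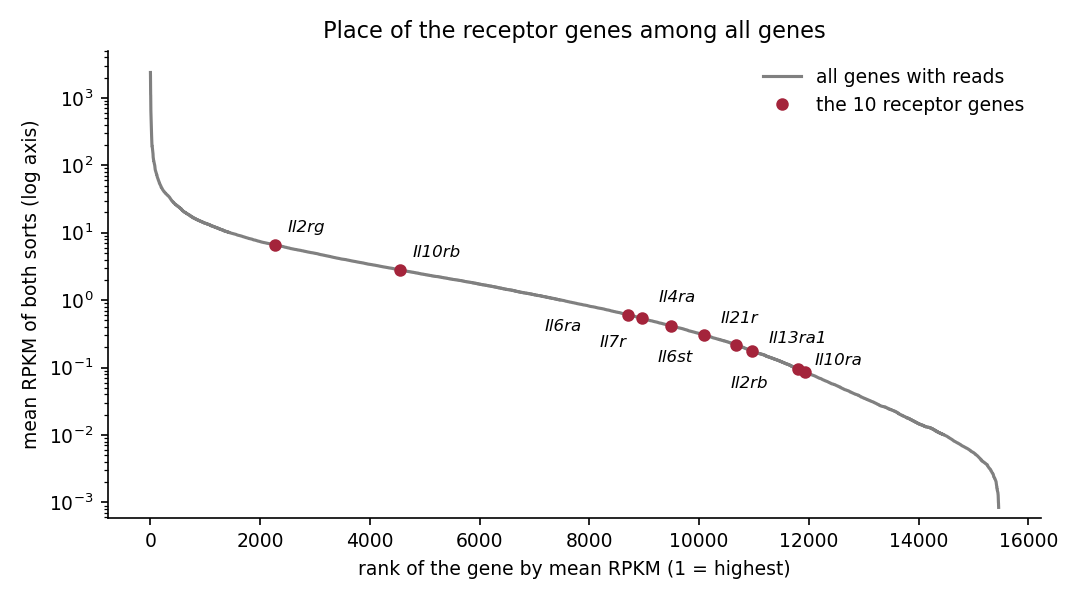
Mean RPKM of both sorts (log axis) against the rank of each gene among all 23343, for genes with reads (grey line), with the 10 receptor genes marked. Il2rg is at rank 2268 and Il10rb at 4551, and the other 8 lie between ranks 8704 and 11930.

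Chains that work as partners differed in transcript level, most of them by a similar factor in both sorts. Setting RPKM against RPKM within a library, Il10rb exceeded Il10ra 32.8-fold in sort 1 (95% interval 18.8 to 62.6) and 26.4-fold in sort 2 (15.4 to 49.2). Il2rg exceeded Il4ra 11.0-fold (9.01 to 13.5) and 13.8-fold (11.0 to 17.4). The shared chain was thus the higher of each pair. The same held for Il2rg over Il21r, 26.5-fold in sort 1 and 18.3-fold in sort 2, and over Il2rb, 82.1-fold and 70.1-fold. The ratio of Il2rg to Il7r differed most, with 12.4-fold in sort 1 (9.63 to 16.2) and 22.6-fold in sort 2 (16.1 to 32.5). In the type II receptor Il4ra exceeded Il13ra1 2.87-fold and 3.31-fold. Il6ra exceeded Il6st 2.76-fold and 2.85-fold, a receptor in which the shared chain was the lower. These are ratios of transcripts, and no receptor protein was measured beyond the sort markers.

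**Figure D3:**
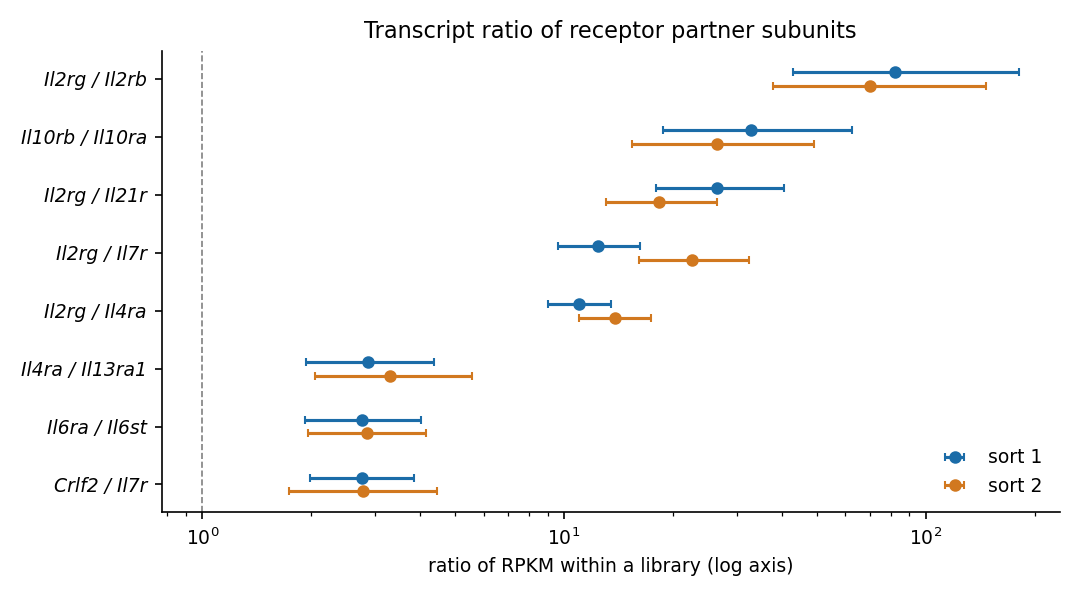
Ratio of the RPKM of one receptor chain to that of its partner within each library (log axis), in sort 1 (blue) and sort 2 (orange), with exact 95% intervals from the reads. The chain with the higher level was set on top in each pair, so ratios above 1 follow from that order. The intervals of all 8 lie above 1 as well. Ratios run from 2.76 for Il6ra over Il6st in sort 1 to 82.1 for Il2rg over Il2rb in sort 1.

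Differences between the sorts were tested by the exact binomial test, two-sided, of their reads, scaled by TMM and adjusted by Benjamini-Hochberg over all 12347 genes with at least 10 reads. It asks whether the libraries differ by more than counting noise, and no condition is tested. All 10 receptor genes were tested, and 0 were called at an adjusted p under 0.05 with a fold of at least 2, beside 7.95% of all tested genes. The fold in a call, like the log2 ratios, carries a prior count of 2, while folds given with an interval, and other folds in the text, do not. At any fold 1 of 10 passed, Il7r, beside 44.4% of all genes, and 21.6% passed with the higher level in sort 1. At an unadjusted p under 0.05 in the same test the count was also 1, and those 44.4% of all genes pass this looser mark as well. The edgeR exact test with the dispersion of both libraries called 0 members, beside 33 of all 12347 genes. At an unadjusted p under 0.05 it gave 0 members, beside 760 of all genes. The 10 receptor genes split evenly, 5 higher in sort 1 and 5 higher in sort 2. The signs of Il2rg, Il6ra and Il6st, all within 0.05 of 0 on the log2 scale, changed under other scalings.

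Il7r was 1.83-fold higher in sort 1 (95% interval 1.21 to 2.80, log2 ratio 0.84), with an adjusted p of 0.00821 in the exact binomial test. The exact test of edgeR gave an unadjusted p of 0.137. Its dispersion was estimated from the same 2 libraries taken as 1 group. Differences between the sorts therefore enter it, and it is no independent check. Crlf2, the partner of Il7r in the TSLP receptor, had 82 reads in sort 1 and 42 in sort 2. That is a 1.86-fold difference in the same direction, with an adjusted p of 0.00294 in the exact binomial test. Lymphoid markers were uneven, and several were higher in sort 1, as Il7r was. Of 14 B and plasma cell markers 3 were detected, the median was 0.868 RPKM in sort 1 and 0.632 in sort 2, both above Il7r, and the list summed to 13.5 and 9.75 RPKM. Cd79a, a chain of the B cell receptor, had 133 reads in sort 1 and 57 in sort 2 and was called. Of 14 T and NK cell markers 1 was detected, the granule gene Nkg7, at 9.81 and 11.0 RPKM, which made up most of the list's sums of 11.6 and 12.0. Without Nkg7 the other 13 summed to 1.75 RPKM in sort 1 and 1.01 in sort 2. Among them Cd4 had 57 reads in sort 1 and 27 in sort 2 (adjusted p of 0.00676, exact binomial test). The T cell receptor chains Cd3d, Cd3g, Cd247 and Cd3e had 23, 4, 8 and 2 reads in sort 1 and 12, 1, 0 and 5 in sort 2, and Lck had 0 and 2. Of 10 markers of group 2 innate lymphoid cells 2 were detected, Il1rl1 at 8.72 and 11.3 RPKM and Il17rb at 3.32 and 4.19, and the list summed to 13.4 and 16.6. Of the same list Gata3 had 1 read in sort 1 and 0 in sort 2, and Areg and Il5 had 0 in both. Their part in the levels of Il7r, Il21r and Il2rb was not tested.

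**Figure D4:**
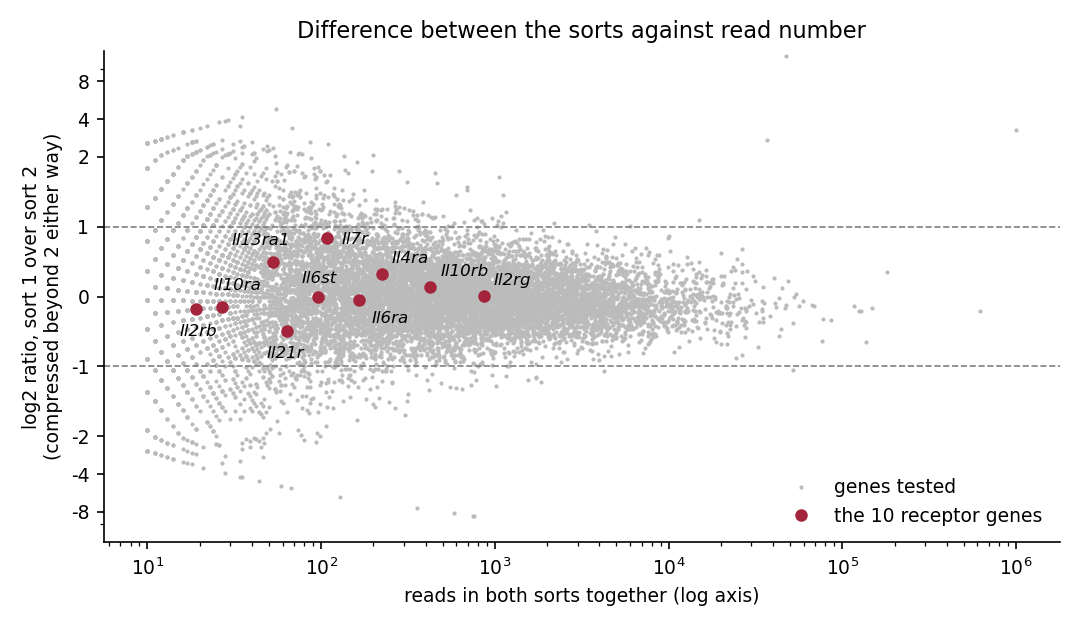
Log2 ratio of sort 1 over sort 2 (TMM-scaled reads with a prior count of 2; axis compressed beyond 2 either way) against the reads of both sorts together, for the 12347 genes tested (grey) and the 10 receptor genes (red). The dashed lines mark a 2-fold difference, and all 10 receptor genes lie between them, Il7r highest at 0.84.

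The remaining 9 genes had log2 ratios between -0.49 for Il21r and 0.50 for Il13ra1, where the 25th and 75th percentiles of all tested genes were -0.31 and 0.35. Il4ra was 1.26-fold higher in sort 1 (0.961 to 1.66, adjusted p of 0.166 in the exact binomial test) and Il13ra1 1.45-fold (0.813 to 2.65, adjusted p of 0.327). For Il10rb the fold was 1.10 (0.904 to 1.34). These intervals include 1, and that of Il13ra1 also includes a 2-fold difference. Il2rg and Il13ra1 are on chromosome X, and the pools differed in sex: Xist had 47487 reads in sort 1 and 5 in sort 2, and the Y-linked Kdm5d 0 and 756. Il2rg had a fold of 1.01 (0.878 to 1.15). Sex and sort cannot be told apart here. Ratios across genes also followed transcript GC content, with a Spearman correlation of 0.54 over 8680 genes with at least 100 reads, given as a description of these 2 libraries. With a fit on GC content removed, Il7r, whose transcript has 40.5% GC, had a log2 ratio of 1.17 and Il4ra, with 55.8% GC, 0.07.

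Other subunits of these families gave a similar picture of few high and many low genes. Of 24 listed, 5 were detected, beside 30.2% of all genes. They were Il12rb2 of the gp130-related group and the interferon receptor chains Ifnar1, Ifnar2, Ifngr1 and Ifngr2. These interferon receptor chains belong to the class II group that holds the IL-10 receptor. Il12rb2, the signalling chain of the IL-12 receptor, had 6.99 ± 1.78 RPKM, while its partner Il12rb1 had 0.0687 ± 0.0244 (SD, n = 2). Ifnar2 had 29.1 ± 2.01, Ifngr1 13.8 ± 0.233, Ifngr2 10.7 ± 0.0559 and Ifnar1 3.66 ± 0.439. In the gamma chain family none of the 5 others was detected in both sorts. Crlf2 had 1.51 RPKM in sort 1 and 0.788 in sort 2, Il15ra 0.875 and 0.612, Il2ra 0.184 and 0.167, and Il9r and the decoy receptor Il13ra2 had 2 reads each in all. Of 15 tested, 2 were called between the sorts, beside 7.95% of all tested genes, and both were lower in sort 1. They were Lifr, the LIF receptor that pairs with gp130, with 14 reads in sort 1 and 66 in sort 2, and Il11ra1 with 11 and 26. Osmr, the oncostatin M receptor, and Cntfr had 0 reads in both sorts.

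Among ligands, Il4 was the highest of 8 for the gamma chain family, with 331 reads in sort 1 and 414 in sort 2 and a mean of 15.3 ± 2.36 RPKM (SD, n = 2). Its level thus exceeded that of Il4ra. Il15 was the other one detected, at 1.80 ± 0.369 RPKM, and Il13 had 9 and 13 reads. Of 9 gp130 family ligands, Ebi3, a subunit of IL-27 and IL-35, had 8.87 ± 3.23 RPKM and Osm, oncostatin M, 4.07 ± 0.922, whereas Il6 had 19 and 27 reads. Il10 had 2 reads in sort 1 and 1 in sort 2, and the other 4 ligands of the IL-10 family had 0. A count of 0 allows up to 3 reads.

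Kinases and STATs that serve these receptors were more abundant than most of the receptor chains. Of 4 Janus kinases 3 were detected, Jak1 at 31.9 ± 0.840, Jak2 at 9.15 ± 0.223 and Tyk2 at 2.86 ± 0.488 RPKM. Jak3, the kinase bound by the common gamma chain, was below the minimum at 0.451 ± 0.0438 RPKM, with 66 and 74 reads (SD, n = 2). All 7 STAT genes were detected, including Stat6 at 20.1 ± 0.139, Stat3 at 11.8 ± 1.19 and Stat2 at 5.44 ± 0.276 RPKM. None of the kinases or STATs was called between the sorts, beside 7.95% of all tested genes. Adam17 and Adam10, proteases that release IL-6Rα from the cell surface, had 5.23 ± 0.166 and 4.05 ± 0.148 RPKM.

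Negative regulators were uneven. Among the 8 listed, phosphatases were detected throughout, with Ptpn6 (SHP-1) at 23.3 ± 6.47, Ptpn1 at 12.3 ± 0.478, Ptpn2 at 5.81 ± 1.18 and Ptpn11 at 2.39 ± 0.197 RPKM. Of the SOCS group Cish was detected, at 2.78 RPKM in sort 1 and 1.21 in sort 2, and was called between the sorts, 2.19-fold higher in sort 1 (adjusted p of 3.59e-11, exact binomial test). Socs1 and Socs3, which IL-4, IL-6 and IL-10 are known to induce in other leukocytes, had 0.162 ± 0.0575 and 0.163 ± 0.0899 RPKM. Socs2 had 14 reads in sort 1 and 0 in sort 2 and was called as well. That made 2 of the 8 called, beside 7.95% of all tested genes. Of 6 adaptors 4 were detected, including Irs2, a substrate of the IL-4 receptor, at 1.36 ± 0.0796 RPKM, while Irs1 and Gab1 were low and were called higher in sort 1.

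**Figure D5:**
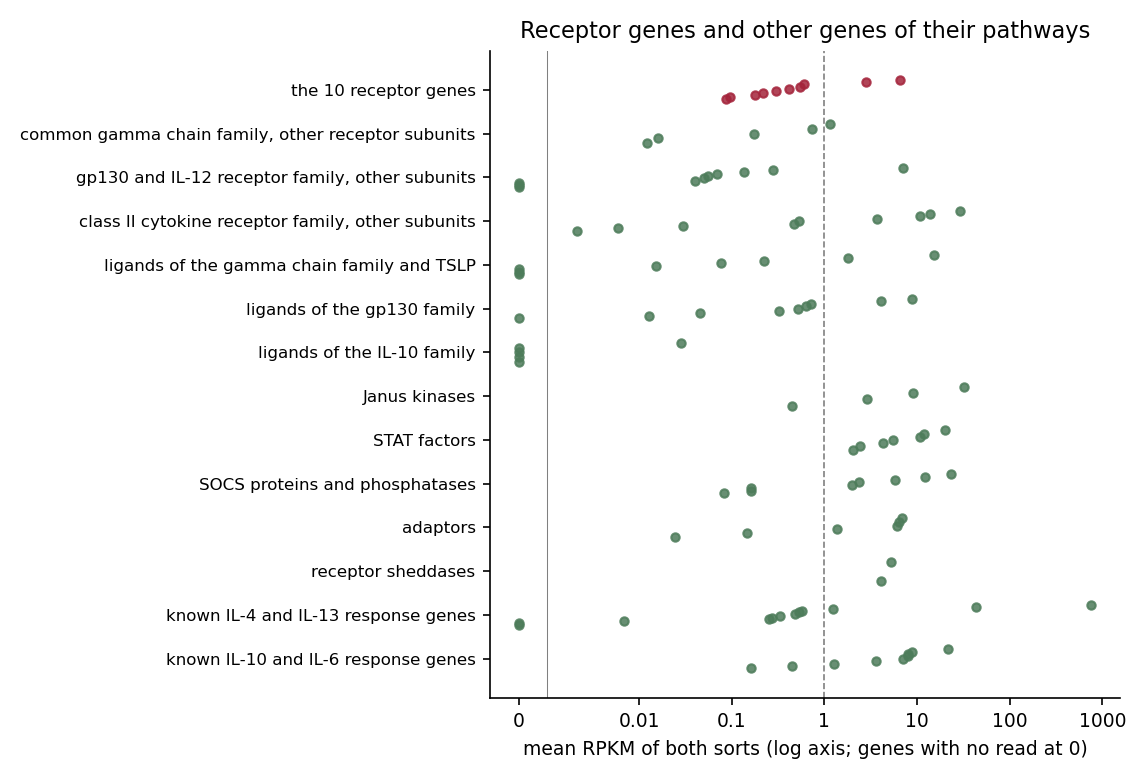
Mean RPKM of both sorts (log axis, genes with no read at 0) for the 10 receptor genes (red) and for each list of other genes of their pathways (green), 1 point per gene. Janus kinases, STAT factors and sheddases lie mostly above the dashed minimum of 1, while 8 of the 10 receptor genes lie below it.

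Genes known to respond to IL-4 and IL-13 in other myeloid cells were split. Of 12 listed, 3 were detected: Alox15, the 12/15-lipoxygenase, which is also on the eosinophil marker list, at 758 ± 35.4 RPKM, Chi3l3, a chitinase-like protein, at 43.2 ± 2.46, and Mrc1, the mannose receptor, at 1.24 ± 0.143 (SD, n = 2). Arg1 had 23 reads in sort 1 and 7 in sort 2, Retnla 15 and 11, and the eotaxins Ccl11 and Ccl24 had 0. Arg1 and the IgE receptor gene Fcer2a were called higher in sort 1, 2 of 9 tested, beside 7.95% of all tested genes. Of 9 genes known to respond to IL-10 or IL-6, 7 were detected, with Il1rn, the IL-1 receptor antagonist, at 21.4 ± 3.31, Pim1 at 8.72 ± 3.51, Junb at 8.02 ± 3.14 and Hmox1 at 8.01 ± 2.24 RPKM. Bcl3, the 1 called of 9 tested, was lower in sort 1, with 18 reads against 48 in sort 2. Many other signals set these genes, and no cytokine was given to the mice, so the levels measure no response.

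Counted once each, 40 of the 93 listed pathway genes were detected, beside 30.2% of all genes. Of 68 tested, 9 were called between the sorts, 6 higher in sort 1 and 3 lower, beside 7.95% of all tested genes. Of 14 monocyte and macrophage markers 8 were detected, with sums of 323 RPKM in sort 1 and 258 in sort 2, and the 12 late neutrophil genes summed to 4240 and 3959. Selection on CCR3 and SiglecF would be meant to leave such cells out, and transcripts of other cells and transcripts of the sorted eosinophils cannot be told apart in these libraries. Basophil and mast cell markers summed to 32.4 and 34.9 RPKM with 7 of 10 detected, and precursor genes of granulocytes and monocytes to 345 and 432 with 6 of 6. Macrophage genes Cd163, C1qa, C1qb and C1qc were called higher in sort 1, with 163, 16, 203 and 195 reads in sort 1 against 35, 0, 90 and 72 in sort 2, and Cx3cr1 was called lower, with 2 reads in sort 1 and 26 in sort 2. Their part in the receptor levels was not tested.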

How the data were processed

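RNA of sorted eosinophils was measured in 2 libraries of 1 group, with stranded poly(A) preparation per the labels' protocols. Reads were aligned with STAR 2.4.0c to mm10, per the submitters' processing notes; the counter and whether it used strand are not stated in the sources used here. Read counts, as whole numbers, and RPKM values were deposited by the authors for 26099 rows of RefSeq transcripts, and were summed here to 23343 gene symbols. From rows with 1 transcript of known length (GENCODE M21), the deposited RPKM values imply that sort 1 was divided by 40.4 and sort 2 by 40.5, each times 1000000 reads, while the table totals are 25.0% and 22.9% of that. The authors' RPKM is therefore 4.00 and 4.37 times lower than one computed on the table's total.

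The receptor genes and the gene lists were chosen with earlier results of these data known. Named genes are all 10 receptor genes and, of each pathway list, the detected genes or the 4 highest; genes called between the sorts, the ligands and receptors at or near 0 reads and a few low members were added after their values were seen. One gene that this rule names is not reported here. Of the marker lists, Trac and Ly6g were not matched.

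Levels are RPKM with exact 95% Poisson intervals from the reads, and ratios carry exact conditional binomial intervals. The series' design text calls the sorts independent, and no label says more of the pools. Binomial p-values set the difference between these 2 libraries against counting noise only, with no estimate of the spread between sorts. With 1 group, edgeR's quasi-likelihood test has no residual degrees of freedom, so reads of the sorts were compared by an exact two-sided binomial test given TMM-scaled library sizes, over genes with at least 10 reads, with Benjamini-Hochberg adjustment, a call needing both an adjusted p under 0.05 and at least a 2-fold difference after a prior count of 2 was added. The exact test of edgeR 4.0.16 with the common dispersion (biological coefficient of variation 0.232) and DESeq2 1.42.0 size factors were alternatives, beside other minimums, filters, folds, prior counts and a GC fit (statsmodels 0.14.6, span 0.3). The edgeR dispersion was estimated from both libraries as 1 group, so differences between the sorts are part of it. The binomial test was first tried on simulated reads that held counting noise only, as the test assumes. That trial cannot show how often the test calls genes when libraries vary by more than this. Promoter windows are those of RefSeq on GRCm38.p6, the same assembly as mm10.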

Additional observations from a re-analysis of the deposited data

How the results depend on the processing

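The 2 detected receptor genes stayed 2 with an RPKM minimum of 2, with the highest row per gene and with either sort alone, and were 3 at a minimum of 0.5, 6 after rescaling to the table's own total (chosen after seeing the data) and 9 at a CPM of at least 1. The summary of the 10 genes was 0.359 RPKM as a median, 0.317 to 0.401 over the sorts taken alone, and 1.18 as a mean, which Il2rg and Il10rb dominate. The 0 receptor genes called between the sorts became 1, Il7r, at a fold of 1.5 and at any fold. Calls were not remade with the GC fit removed, where the log2 ratio of Il7r was 1.17, beyond a 2-fold difference. With no prior count in the fold, an alternative chosen after seeing the data, 0 receptor genes and 1038 of all genes were called, and Cd4 and Vpreb3 of the marker lists were added. For all genes, the 981 calls became 475 with at least 50 reads, 2246 at a fold of 1.5, 5481 at any fold and 33 with edgeR's exact test, where 760 genes had an unadjusted p under 0.05. Of 60 log2 ratios under 6 alternatives, 54 kept their sign. Those that did not were Il2rg, at 0.01 in the main scaling and -0.05 with total counts, Il6ra, at -0.05 and 0.01 or 0.02 from RPKM with a pseudocount of 1 or 0.1, and Il6st, at -0.01 and 0.01 or 0.04 from RPKM, or 0.08 with the GC fit removed. Pathway genes detected numbered 40, and 34 to 58 under the alternatives. Leaving out a sort leaves 1 library and no test between the sorts. No paired analysis was possible because the 2 libraries form 1 group. Depth limits Il2rb and Il10ra most, with at most 14 reads in a sort.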
